A study of Mus musculus with 9 samples.

Results

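The genes described are 10 feedback targets of the RAS-MAPK pathway: the phosphatase genes Dusp4, Dusp5 and Dusp6, the Sprouty genes Spry1, Spry2 and Spry4, the Sprouty-related genes Spred1 and Spred2, and the ETS factor genes Etv4 and Etv5. They were taken by name from a list chosen with earlier results of these data known. All 10 were found among the 41388 genes of each count table. Liver RNA came from male C57BL/6J mice that all received diethylnitrosamine (DEN), a liver carcinogen, at 25 mg per kg by intraperitoneal injection at 14 days of age, ate standard chow and were killed at 6 months. Control mice carried floxed Mttp (Mttp fl/fl), MttpLKO mice lacked Mttp in the liver only, and DKO mice had the liver deletion of Mttp together with a germline deletion of Fabp1. Mttp encodes a transfer protein needed to assemble and secrete VLDL, and Fabp1 the liver fatty acid-binding protein. The driver of the liver deletion is not given in the sources used here, no group without DEN and no Fabp1 single deletion was analysed here, and all groups share the carcinogen. Each of the 9 libraries, 3 per genotype, pooled the RNA of 3 mice, so single mice were not measured and p-values rest on the spread between pools. Whether tumour tissue was part of the liver samples is not stated. In whole liver, fewer cells of a type and less RNA per cell cannot be told apart.

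Growth factor receptors activate RAS, which switches on the kinases RAF, MEK and ERK in turn. Active ERK induces the genes described here, and most of their products then damp the pathway: Sprouty and Spred proteins act at the level of the receptor, RAS and RAF, and DUSP phosphatases remove the activating phosphates from ERK itself. Etv4 and Etv5 encode transcription factors that carry the signal on to other genes. Nitrosamine-induced mouse liver tumours often carry activating mutations in Hras or Braf.

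Dusp5 had the widest range over the 9 libraries and Dusp6 was the most abundant of the 10, so the 250 bases before the RefSeq start of each are printed, on the plus strand of GRCm38.p6. The Dusp5 window is chr19:53528895-53529144 and the Dusp6 window chr10:99262981-99263230. As the count tables give them, Dusp5 itself spans 53529109 to 53542431 on chromosome 19 and Dusp6 spans 99263231 to 99267488 on chromosome 10. Capitals mark the ETS core GGAAGT on either strand and CArG boxes, the motif of serum response factor, which works with ETS proteins that ERK phosphorylates.
Dusp5: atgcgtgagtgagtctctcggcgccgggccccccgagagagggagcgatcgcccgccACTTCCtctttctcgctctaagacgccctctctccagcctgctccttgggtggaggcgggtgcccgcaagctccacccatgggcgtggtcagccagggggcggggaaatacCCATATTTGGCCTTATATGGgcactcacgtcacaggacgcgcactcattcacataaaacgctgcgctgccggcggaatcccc
Dusp6: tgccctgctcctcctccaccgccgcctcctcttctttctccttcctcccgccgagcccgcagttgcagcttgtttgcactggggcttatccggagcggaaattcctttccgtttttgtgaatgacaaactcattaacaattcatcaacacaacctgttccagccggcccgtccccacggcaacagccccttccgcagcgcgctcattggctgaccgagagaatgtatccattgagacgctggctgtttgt

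The Dusp5 window held 2 CArG boxes side by side, CCATATTTGG starting 82 bases and CCTTATATGG starting 72 bases before the start, and 1 ETS core on the opposite strand, beginning 193 bases before it. RefSeq windows were found for 7 of the 10 genes. Dusp5 was the 1 gene of these with a CArG box, which 1.47% of 32851 promoter windows of the same length held. GGAAGT was in a window of 3 of the 7 genes (Dusp5, Spred2 and 1 of 2 Etv5 windows), against 19.7% of all windows. The AP-1 motif TGANTCA (6.75% of all windows) and the CRE motif TGACGTCA (1.55%) were in none of the 7, both strands searched. These are letter matches in a short window and no binding was measured.

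The labels' deletions showed in the counts. Mttp was at 3.24 to 9.78 CPM in MttpLKO and DKO and at 69.4 or more in control. Fabp1 was at 50.3 to 78.0 CPM in DKO, 3379 to 4984 CPM in MttpLKO and 6060 to 6845 CPM in control. EdgeR did not call Fabp1 in MttpLKO against control. Library totals ran from 23268389 to 27918197 counts, and the DKO libraries were the 3 shallowest. Hepatocyte markers summed to 65467 CPM or more in each library. MttpLKO replicate 3 stood apart from the other libraries, at 53.7 on the first principal component against -17.4 to 9.62. Its 8 proliferation markers summed to 28.9 CPM against 7.10 and 7.72 in the other MttpLKO pools, 7.99 to 9.22 in control and 10.3 to 15.4 in DKO. In the same library B and plasma cell markers summed to 63.8 CPM (9.95 to 33.2 in the other 8 libraries), T and NK cell markers to 12.5 CPM (1.66 to 4.49) and stellate cell markers to 510.0 CPM (251 to 321). Endothelial markers were at 234 to 354 CPM and bile duct markers at 88.0 to 167 CPM over all libraries, the latter highest in MttpLKO replicate 3. Macrophage markers were at 35.4 and 43.8 CPM in MttpLKO replicates 1 and 2 and at 61.4 to 141 CPM elsewhere. The 6 adipocyte list genes summed to 3243 to 5782 CPM, nearly all of it from Pck1, which hepatocytes also express. Adipoq, Plin1 and Lep, the most fat-specific of the list, were at or near 0 (at most 0.184 CPM), Fabp4 was at 7.56 to 20.2 CPM, and Cfd was at 1.29 to 1.53 CPM in MttpLKO, 4.28 to 7.52 in control and 11.7, 56.6 and 2.29 in the DKO pools. With the low-count filter and all 9 libraries edgeR called 1 gene of the marker lists, Derl3 of the B and plasma cell list. It was higher in DKO than in control (log2 fold change 2.03, edgeR adjusted p = 0.0375). That call was lost with limma-voom (adjusted p = 0.14), a minimum count of 50 (0.0505), the 6 compared libraries alone (0.0548), or without any 1 of control replicates 1, 2 and 3, MttpLKO replicate 2 and DKO replicates 1 and 3 (edgeR adjusted p = 0.0509 to 0.201). DESeq2 called Stab2 lower and Reln higher in MttpLKO against control, Marco, Cfd and Derl3 higher in DKO against MttpLKO, and Ttr lower and Derl3 higher in DKO against control. Without the low-count filter edgeR called Stab2 and Klrb1c lower and Reln, Spp1 and Jchain higher in MttpLKO against control. In DKO against MttpLKO it called Marco, Cfd and Derl3 higher and Jchain lower, and in DKO against control Derl3 higher. With the 6 compared libraries alone edgeR called Stab2 and Cfd lower in MttpLKO against control. Of all genes, edgeR without the filter called 0.671%, 0.706% and 0.789%, and DESeq2 1.12%, 1.45% and 1.85%, in these 3 comparisons.

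Per length, Dusp6 stood above the others, at a mean of 20.8 RPKM over the 9 libraries in the authors' deposited values. Spry4 followed at 4.70 RPKM, then Spred2 at 3.24, Spry1 at 2.54, Spred1 at 1.90, Dusp4 at 1.20, Dusp5 at 1.05, Spry2 at 0.925, Etv5 at 0.708 and Etv4 at 0.371. Dusp6 ranged from 14.6 to 25.7 RPKM and did not overlap with Spry4, whose highest library was at 5.84. The middle of the order was not separable: Dusp5 (0.478 to 2.10 RPKM) spanned the ranges of Spry2 (0.595 to 1.53) and Dusp4 (0.826 to 1.57). Etv4, the least abundant, had 14 to 51 counts per library.

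None of the 10 genes passed the test in any of the 3 comparisons between genotypes (edgeR's quasi-likelihood test, adjusted p under 0.05 over 14741 genes). In MttpLKO against control the adjusted p ran from 0.493 to 0.999, in DKO against MttpLKO from 0.278 to 0.949 and in DKO against control from 0.209 to 0.953. The share of all genes called was 0.346%, 0.400% and 0.332% in the same order. With an unadjusted p under 0.05 there was 1 gene of the 10 in each comparison, Dusp5, Dusp6 and Dusp5 in turn, where 6.97%, 9.10% and 11.2% of all genes had one. DESeq2 called none, none and 1 (Dusp5, higher in DKO than in control), where it called 1.12%, 1.45% and 1.85% of the genes it tested, and limma-voom called none in any comparison. The comparisons share samples: each genotype's libraries enter 2 of the 3.

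**Figure D1:**
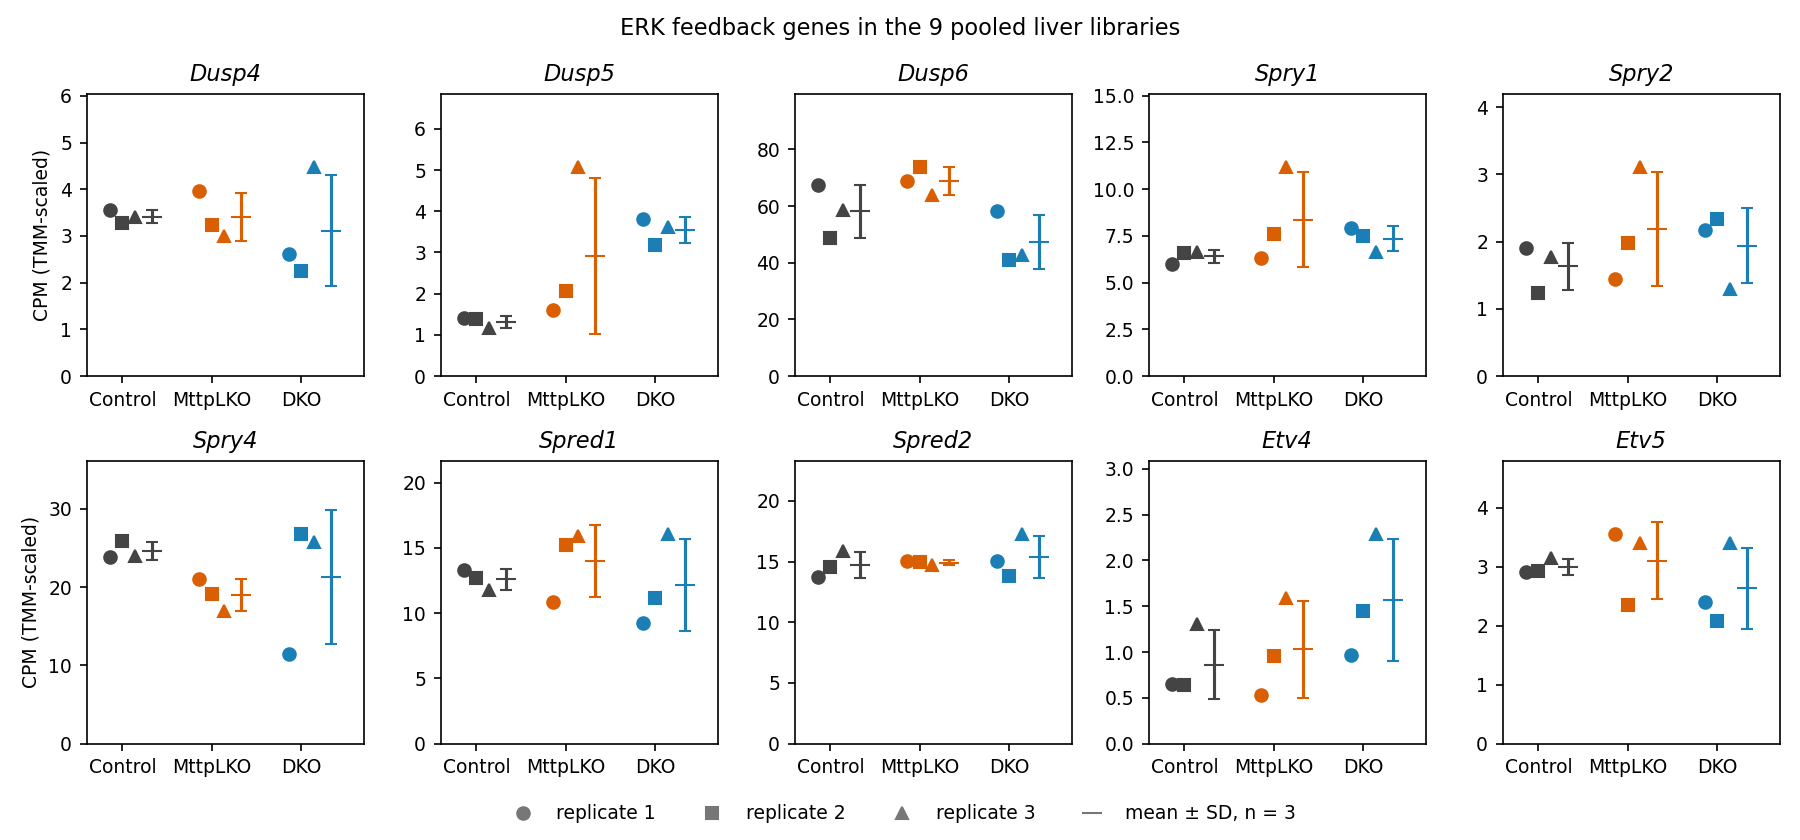
CPM on TMM-scaled library sizes (vertical axes, from 0) of the 10 genes in the 3 pools of each genotype (horizontal axes). Points are libraries, shaped by replicate number, and the bar beside them is the mean with SD (n = 3). Dusp5 is at 1.16 to 1.41 CPM in control and 3.19 to 3.82 CPM in DKO, and 1 MttpLKO pool is at 5.08 CPM.

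The phosphatase genes went different ways. Dusp5 encodes a phosphatase of the nucleus that binds and inactivates ERK. It was at 1.41, 1.39 and 1.16 CPM in the control pools, at 1.60, 2.06 and 5.08 CPM in the MttpLKO pools and at 3.82, 3.19 and 3.63 CPM in the DKO pools, from 32 to 137 counts. All control pools lay below all others, the 3 DKO pools lay close together, and in MttpLKO a single pool was far above its group. Group means were 1.32 ± 0.142 CPM for control (SD, n = 3), 2.91 ± 1.89 for MttpLKO and 3.55 ± 0.321 for DKO. Against control, DKO was 2.68-fold higher (log2 fold change 1.42 ± 0.39 SE, 95% interval 0.57 to 2.27, unadjusted p = 0.0036, edgeR adjusted p = 0.209), which did not pass the test.

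Whether Dusp5 was called in DKO against control differed between settings, and the cause was not tested. With the same libraries the edgeR adjusted p was 0.0419 when no low-count filter was used, and DESeq2 gave an adjusted p = 0.0255. Fitting the 6 DKO and control libraries alone gave an edgeR adjusted p = 0.021, and leaving out MttpLKO replicate 3 gave 0.0145. Each of these settings also called more of all genes in DKO against control. In the same order they called 201 (0.789%), 256 (1.85%), 78 and 100, where edgeR with the filter and all 9 libraries called 49 (0.332%). In the other 13 settings the edgeR or limma adjusted p was 0.115 to 0.572, and the log2 fold change lay between 1.33 and 1.504 in all 17. MttpLKO against control read 2.20-fold higher for Dusp5 (1.14 ± 0.39 SE as log2, edgeR adjusted p = 0.493). It read 0.47 on the log2 scale without MttpLKO replicate 3 (edgeR adjusted p = 0.736). DKO against MttpLKO read 0.28 ± 0.36 SE (95% interval -0.52 to 1.09, edgeR adjusted p = 0.864) and 0.95 without that library (edgeR adjusted p = 0.159). The summed proliferation markers were also higher in each DKO pool and in MttpLKO replicate 3 than in each control pool. In MttpLKO replicates 1 and 2 they were lower than in each control pool, at 7.10 and 7.72 CPM, while Dusp5 was higher. The part of proliferation in the Dusp5 values was not tested.

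**Figure D2:**
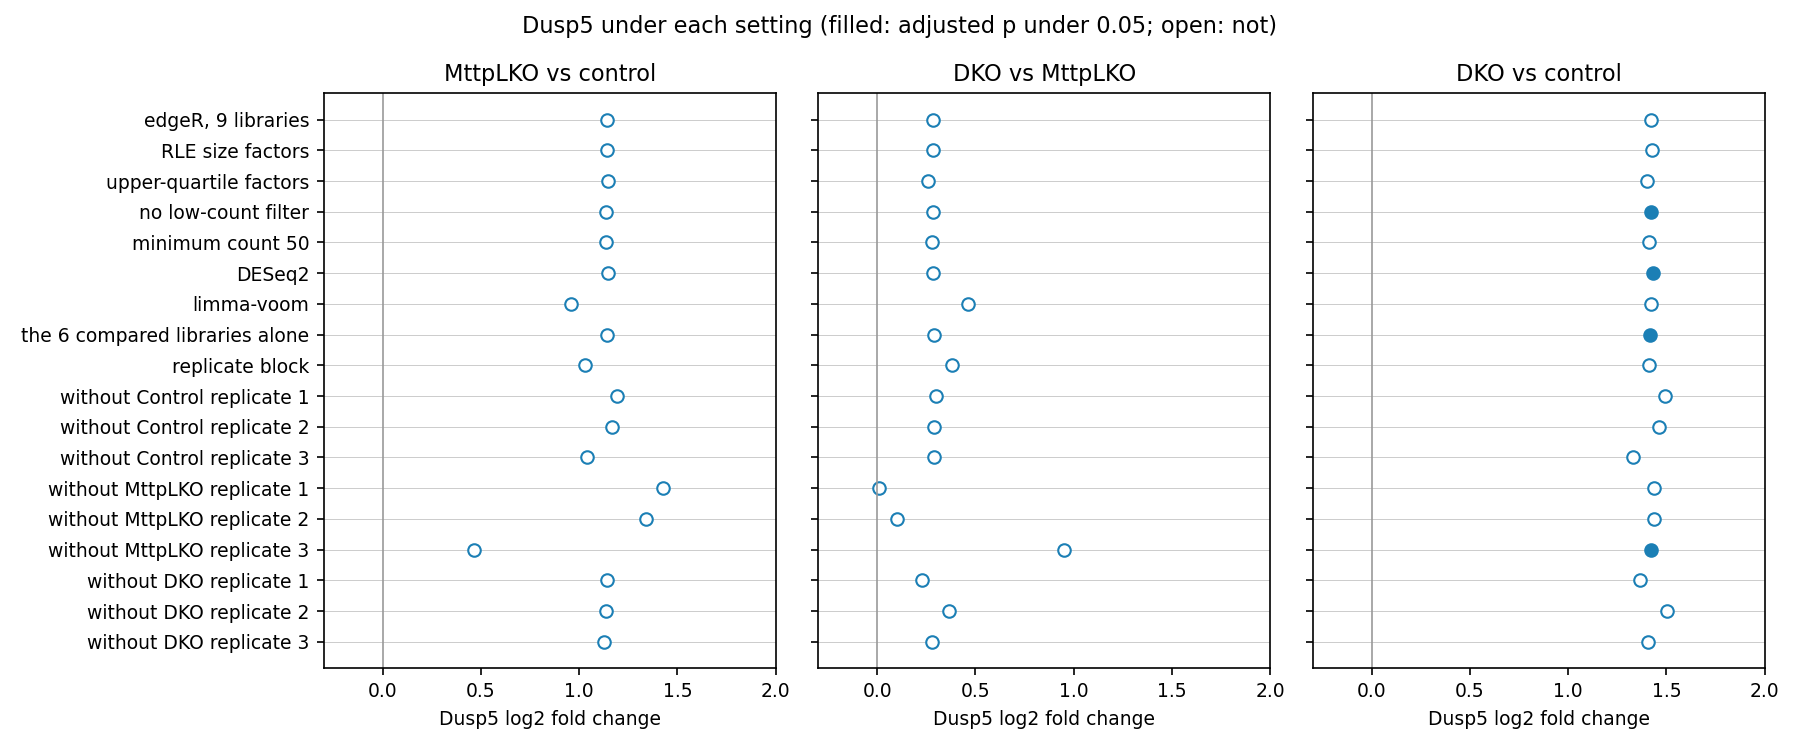
Log2 fold change of Dusp5 (horizontal axes) in the 3 comparisons under each of 18 settings (vertical axis). Filled points have an adjusted p under 0.05: 4 settings in DKO against control, none in the others. Without MttpLKO replicate 3 the point moves from 1.14 to 0.47 in MttpLKO against control and stays at 1.42 in DKO against control.

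Dusp6 encodes the cytoplasmic ERK phosphatase and is widely used as a transcriptional readout of ERK activity. It was at 67.3, 48.6 and 58.6 CPM in control, at 68.8, 73.8 and 63.8 CPM in MttpLKO and at 58.1, 41.1 and 42.7 CPM in DKO. All DKO pools were below all MttpLKO pools, while both genotypes overlapped with control. Its mean of 47.3 ± 9.36 CPM in DKO against 68.8 ± 5.04 in MttpLKO was a 1.45-fold lower level (log2 fold change -0.54 ± 0.16 SE, 95% interval -0.88 to -0.20, unadjusted p = 0.00519, edgeR adjusted p = 0.278), and the call failed in each of the 17 alternatives, with adjusted p from 0.0958 (DESeq2) to 0.688. Against control (58.2 ± 9.38 CPM) Dusp6 read 0.24 ± 0.15 SE in MttpLKO and -0.30 ± 0.15 SE in DKO on the log2 scale (edgeR adjusted p = 0.876 and 0.516).

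Dusp4 encodes an inducible phosphatase of the nucleus that acts on ERK and other MAP kinases. It was at 3.56, 3.27 and 3.40 CPM in control, at 3.97, 3.23 and 3.00 CPM in MttpLKO and at 2.61, 2.26 and 4.48 CPM in DKO. DKO replicates 1 and 2 were the lowest libraries and DKO replicate 3 was the highest of all 9. The log2 fold change was -0.003 ± 0.26 SE in MttpLKO and -0.13 ± 0.26 SE in DKO against control (edgeR adjusted p = 0.999 and 0.901).

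Groups without overlap were counted for all 10. In MttpLKO against control Dusp5 was higher and Spry4 lower without overlap, where 7.27% of all genes were higher and 6.99% lower in that way. In DKO against MttpLKO no member was higher and Dusp6 was lower, with 5.67% and 5.83% of all genes. In DKO against control Dusp5 and Spry1 were higher and none lower, with 8.95% and 9.18% of all genes; the lowest DKO pool for Spry1 was at 6.63 CPM and the highest control pool at 6.62. Over the 10 genes the median log2 fold change was 0.20 in MttpLKO against control, -0.15 in DKO against MttpLKO and 0.005 in DKO against control, beside 0.011, -0.016 and -0.002 over all genes tested.

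**Figure D3:**
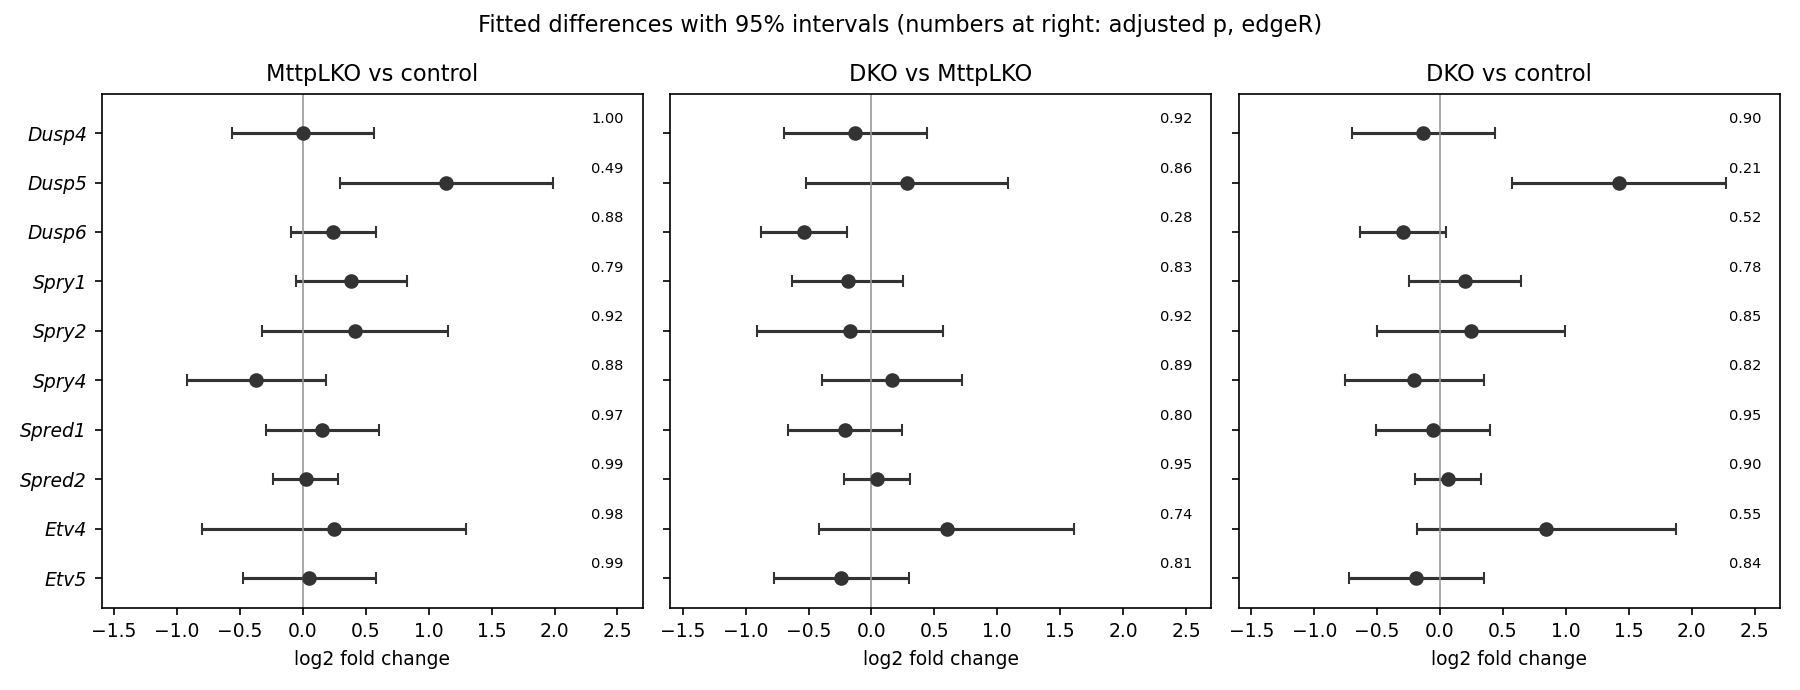
Log2 fold change of each gene (horizontal axes) with its 95% interval from the edgeR fit, in the 3 comparisons, and the adjusted p at the right of each row. The intervals that exclude 0 are those of Dusp5 against control in both other genotypes and of Dusp6 in DKO against MttpLKO, and no adjusted p is below 0.209.

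Sprouty proteins are membrane-recruited inhibitors of receptor signalling to RAS. Spry1 was at 6.02, 6.58 and 6.62 CPM in control, at 6.30, 7.61 and 11.2 CPM in MttpLKO and at 7.92, 7.49 and 6.63 CPM in DKO. Spry2 was at 1.90, 1.24 and 1.77 CPM in control, at 1.45, 1.98 and 3.11 CPM in MttpLKO and at 2.17, 2.34 and 1.30 CPM in DKO. MttpLKO replicate 3, the library with high proliferation, lymphocyte and stellate cell markers, was the highest of the 9 for both, as it was for Dusp5.

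In MttpLKO against control Spry1 read 0.38 ± 0.20 SE and Spry2 0.42 ± 0.34 SE on the log2 scale (edgeR adjusted p = 0.787 and 0.918). Without MttpLKO replicate 3 these were 0.11 and 0.07. Against MttpLKO the values in DKO, -0.19 for Spry1 and -0.17 for Spry2, became 0.08 and 0.18 without it. What the cell makeup of that pool contributed to these values was not tested.

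Spry4, the most abundant Sprouty gene here per length, was at 23.8, 25.9 and 24.0 CPM in control, at 21.01, 19.1 and 16.9 CPM in MttpLKO and at 11.5, 26.7 and 25.8 CPM in DKO. Each MttpLKO pool was below each control pool, and DKO replicate 1, with 285 counts against 576 and 628 in the other DKO pools, was the lowest library. MttpLKO was 1.29-fold lower than control (log2 fold change -0.37 ± 0.25 SE, 95% interval -0.92 to 0.18, edgeR adjusted p = 0.884). DKO against control read -0.21 ± 0.25 SE with all libraries and 0.10 without DKO replicate 1 (edgeR adjusted p = 0.824 and 0.876). That library also had the lowest sum of hepatocyte markers, of which Alb, at 34963 CPM there, is the largest part. Alb, Ttr, Apoa1 and Tdo2 were lowest in that library and the other listed hepatocyte markers were not. A link between the values was not tested. Spry4 spans 2 small genes annotated on the opposite strand, Gm27369 and Gm27804; whether the counting used strand is not given in the sources used here.

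Spred proteins bind RAS and neurofibromin and help to keep RAS inactive. Spred2 was the steadiest of the 10, at 13.7, 14.6 and 15.8 CPM in control, 15.1, 14.96 and 14.7 CPM in MttpLKO and 15.03, 13.8 and 17.2 CPM in DKO. Its coefficient of variation over the 9 libraries was 7.11%, where counting error at its mean count gives 5.11%. The 95% intervals of its log2 fold changes ran from -0.24 to 0.28 in MttpLKO against control, from -0.22 to 0.30 in DKO against MttpLKO and from -0.20 to 0.33 in DKO against control, the narrowest of the 10 in each. The upper ends of these intervals are 1.22-fold, 1.23-fold and 1.25-fold higher.

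Spred1 was at 13.3, 12.7 and 11.8 CPM in control, at 10.8, 15.2 and 15.9 CPM in MttpLKO and at 9.24, 11.2 and 16.0 CPM in DKO. The groups overlapped in each comparison, and the spread within MttpLKO and DKO was wider than within control. The log2 fold change was 0.15 ± 0.20 SE in MttpLKO and -0.05 ± 0.21 SE in DKO against control (edgeR adjusted p = 0.968 and 0.953).

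The ETS factor genes Etv4 and Etv5 are induced downstream of ERK and encode related activators of the PEA3 group. Etv4 was at 0.647, 0.639 and 1.30 CPM in control, at 0.535, 0.956 and 1.59 CPM in MttpLKO and at 0.965, 1.45 and 2.29 CPM in DKO. The groups overlapped, and the pools of 1 genotype lay far apart in all 3. DKO against control was 1.80-fold higher (log2 fold change 0.85 ± 0.47 SE, 95% interval -0.19 to 1.88, edgeR adjusted p = 0.546), and MttpLKO against control read 0.25 ± 0.47 SE, which was -0.22 without MttpLKO replicate 3. With 14 to 51 counts per library, a 2-fold difference in Etv4 was within its interval in each comparison and could not be told from none.

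Etv5 was at 2.91, 2.93 and 3.15 CPM in control, at 3.55, 2.35 and 3.41 CPM in MttpLKO and at 2.41, 2.09 and 3.41 CPM in DKO. Control pools lay within the range of the others. The log2 fold change was 0.05 ± 0.24 SE in MttpLKO and -0.19 ± 0.24 SE in DKO against control (edgeR adjusted p = 0.994 and 0.838).

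**Figure D4:**
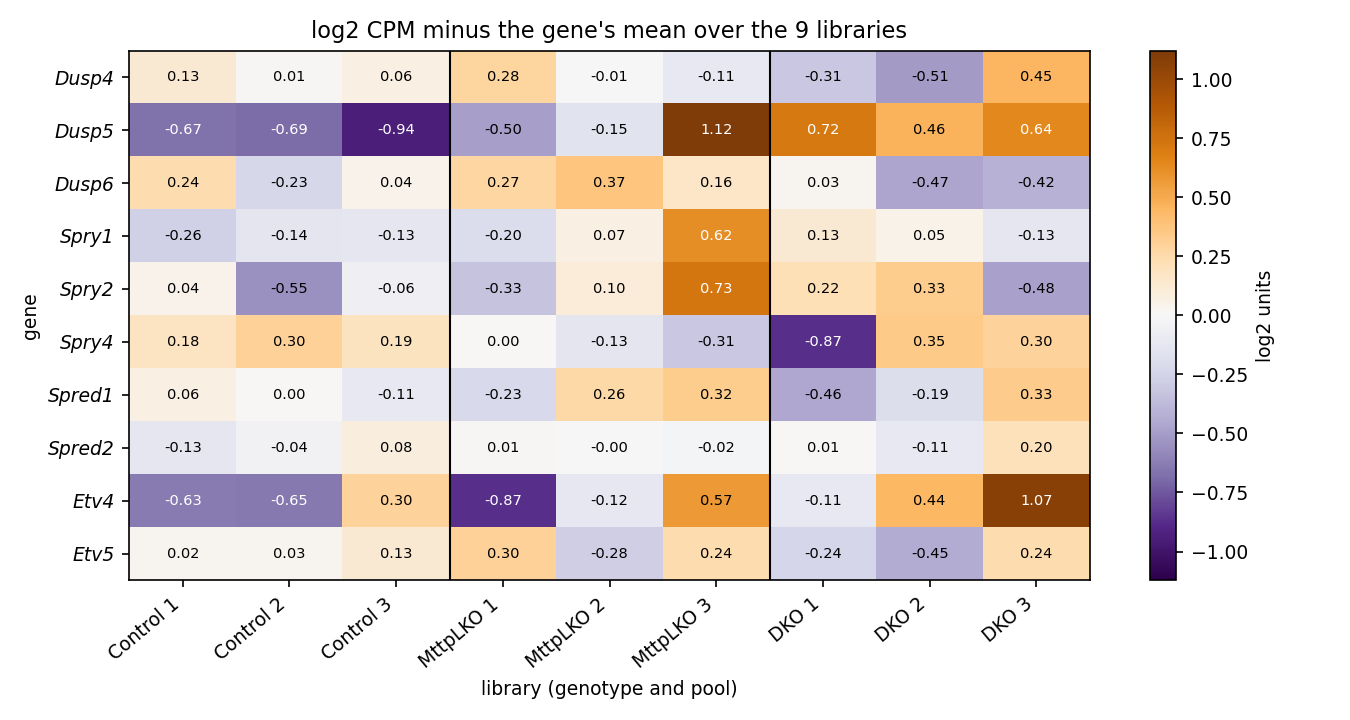
Log2 CPM of each gene (rows) in each library (columns) minus the gene's mean over the 9 libraries, in log2 units. MttpLKO 3 has the highest value of its row for Dusp5, Spry1 and Spry2, DKO 3 for Dusp4, Spred1, Spred2 and Etv4, and no control library has the highest value of any row.

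The 10 genes did not move as a block across libraries. Of the 45 pairs, 29 had a Pearson r above 0 over the 9 libraries, and the median r was 0.14, given as a description, since libraries share genotype and makeup. The closest pairs were Spry1 with Spry2 (r = 0.80) and Dusp4 with Etv5 (r = 0.79), and the most opposed was Dusp4 with Spry2 (r = -0.67). DKO replicate 3 held the highest level for 4 of the genes, MttpLKO replicate 3 for 3, and the control libraries for none. DKO replicate 2 held the lowest level for 3 of them, control replicate 1 and DKO replicate 1 for 2 each. Control replicates 2 and 3 and MttpLKO replicate 1 held it for 1 each. The same count over all genes was not made. The spread over the 9 libraries was 53.3% for Dusp5 and 49.1% for Etv4 as a coefficient of variation, beyond the 12.4% and 18.6% that counting error gives at their mean counts, and 18.0% to 30.6% for all others but Spred2. Outside the list, the gene nearest to Dusp5 in its pattern over the 9 libraries was Vcpkmt, a lysine methyltransferase gene (r = 0.98, the highest of 12476 genes), the nearest to Dusp6 was Ankmy2 (r = 0.93) and the nearest to Spry1 was Tnfrsf21, a death receptor gene (r = 0.97). For the other members it was Akap10 (Dusp4, r = 0.97), Man1c1 (Spry2, r = 0.96), Tspan17 (Spry4, r = 0.97), Zfp954 (Spred1, r = 0.94), Adnp2 (Spred2, r = 0.97), Mpzl1 (Etv4, r = 0.97) and Cyp26b1 (Etv5, r = 0.94). Each r is the highest of 12476 over only 9 libraries, a search that by itself favours high values. Shared regulation was not tested.

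The rest of the pathway was read from lists of receptors and ligands, cascade components, inhibitors, other phosphatases and other ERK-responsive genes. With the low-count filter edgeR called no gene of these 6 lists in any comparison, and limma-voom called none. Without that filter edgeR called Rps6ka1, Myc and Emp1 in MttpLKO against control, Fgfr4, Jun and Ier2 in DKO against MttpLKO, and Tgfa, Myc and Jun in DKO against control, all of which DESeq2 called too. Without the filter edgeR called 0.671%, 0.706% and 0.789% of all genes in these comparisons. The genes named from each list include the 2 with the smallest p per comparison, a choice that favours groups without overlap. Of all genes, 7.27%, 5.67% and 8.95% were higher without overlap in the same order of comparisons, and 6.99%, 5.83% and 9.18% lower. Of 21 growth factor receptor and ligand genes tested, 5, 6 and 4 had an unadjusted p under 0.05 in MttpLKO against control, DKO against MttpLKO and DKO against control, beside 6.97%, 9.10% and 11.2% of all genes, to which the counts for the lists that follow also compare. DESeq2 calls numbered 0, 2 and 1, beside 1.12%, 1.45% and 1.85% of all genes. Pdgfra, the platelet-derived growth factor receptor gene, was at 6.97 ± 0.908 CPM in MttpLKO and 4.38 ± 0.508 in control (edgeR adjusted p = 0.282). Fgf21, a liver hormone gene, was at 0.695 ± 0.226 CPM in MttpLKO and 0.767 ± 0.593 in DKO against 2.08 ± 0.798 in control (edgeR adjusted p = 0.416 and 0.326).

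Fgfr4, the main hepatocyte FGF receptor gene, was at 60.2 ± 12.9 CPM in DKO and 93.3 ± 8.83 in MttpLKO (edgeR adjusted p = 0.183), and Fgfr2 was at 40.3 ± 3.92 and 27.2 ± 4.43 CPM (edgeR adjusted p = 0.21). DESeq2 called Fgfr4 lower and Fgfr2 higher in that comparison. Tgfa, which encodes an EGF receptor ligand, was at 26.8 ± 4.13 CPM in DKO and 17.7 ± 0.897 in control, with no overlap (edgeR adjusted p = 0.109), and DESeq2 called it higher.

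Of 23 genes from adaptors through RAS, RAF, MEK and ERK to the RSK kinases, all were tested, and 1, 2 and 2 had an unadjusted p under 0.05. Their median log2 fold changes were 0.07, 0.03 and 0.06. Rps6ka1, which encodes a kinase activated by ERK, was at 13.0 ± 1.16 CPM in MttpLKO against 20.8 ± 2.57 in control and 20.2 ± 3.78 in DKO (edgeR adjusted p = 0.166 and 0.183), and DESeq2 called both differences. Mknk2, another ERK-activated kinase gene, was at 325 ± 39.1 CPM in MttpLKO and 285 ± 13.9 in control (edgeR adjusted p = 0.874). Rras was at 40.2 ± 1.31 CPM in DKO, 47.5 ± 4.74 in MttpLKO and 47.0 ± 1.53 in control, and Araf, a RAF kinase gene, was at 86.4 ± 4.84 CPM in DKO and 102 ± 2.60 in control (edgeR adjusted p = 0.407).

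Of 15 tested RAS and RAF inhibitor genes, 0, 1 and 1 had an unadjusted p under 0.05. No comparison gave a DESeq2 call among them. Nf1, the neurofibromin gene whose product inactivates RAS, was at 32.0 ± 1.89 CPM in MttpLKO, 37.0 ± 1.05 in control and 36.7 ± 2.87 in DKO (edgeR adjusted p = 0.731 against control). Socs3 was at 64.0 ± 49.4 CPM in DKO and 27.9 ± 8.38 in MttpLKO (edgeR adjusted p = 0.468). Rgs2, a G-protein regulator gene, was at 4.16 ± 0.757 CPM in DKO, 3.45 ± 1.85 in MttpLKO and 2.12 ± 0.937 in control (edgeR adjusted p = 0.41 and 0.845).

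Of 8 other MAP kinase phosphatase genes tested, 1, 1 and 2 had an unadjusted p under 0.05. Dusp16, whose product acts mainly on JNK and p38, was at 44.3 ± 7.45 CPM in MttpLKO, 36.9 ± 4.03 in DKO and 29.4 ± 2.84 in control, and both deletion genotypes were above control without overlap (edgeR adjusted p = 0.188 and 0.422). DESeq2 called Dusp16 higher in MttpLKO and no other gene of this list in any comparison. Dusp3 was at 40.1 ± 8.40 CPM in DKO against 28.6 ± 2.11 in control and 31.2 ± 2.67 in MttpLKO (edgeR adjusted p = 0.243 and 0.486). Dusp2 was at 0.744 ± 0.608 CPM in MttpLKO and 0.356 ± 0.042 in control (edgeR adjusted p = 0.778).

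Of 10 other ERK-induced genes tested, 2, 3 and 1 had an unadjusted p under 0.05. Myc averaged 11.8 ± 3.52 CPM over the control pools, 27.9 ± 4.86 over MttpLKO and 37.8 ± 18.2 over DKO, with all MttpLKO and DKO pools above all controls. Its log2 fold change was 1.25 ± 0.31 SE in MttpLKO (edgeR adjusted p = 0.213) and 1.68 ± 0.31 SE in DKO (edgeR adjusted p = 0.0583) against control, and DESeq2 called both. Emp1, a membrane protein gene, was at 3.10 ± 0.966 CPM in MttpLKO, 1.22 ± 0.088 in control and 1.80 ± 0.519 in DKO (edgeR adjusted p = 0.14 against control and 0.445 between MttpLKO and DKO), and DESeq2 called it higher in MttpLKO. Phlda1 was at 188 ± 113 CPM in DKO, 92.2 ± 32.3 in MttpLKO and 111 ± 41.7 in control (edgeR adjusted p = 0.483 against MttpLKO and 0.526 against control).

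Of 12 tested immediate early genes, the first transcripts made after ERK and stress signals, 1, 3 and 1 had an unadjusted p under 0.05. Their median log2 fold change was 0.13 in MttpLKO against control, -0.32 in DKO against MttpLKO and -0.32 in DKO against control. Jun, an AP-1 subunit gene, was at 53.9 ± 15.7 CPM in DKO, below each pool of MttpLKO (117 ± 29.0) and of control (99.8 ± 17.8; edgeR adjusted p = 0.0955 and 0.185). Ier2 was at 49.2 ± 13.2 CPM in DKO, 83.9 ± 1.00 in MttpLKO and 64.0 ± 12.9 in control (edgeR adjusted p = 0.187 between DKO and MttpLKO). DESeq2 called Jun lower in DKO in both comparisons and Ier2 lower against MttpLKO. Klf6 was at 15.7 ± 2.12 CPM in MttpLKO and 11.0 ± 1.25 in control (edgeR adjusted p = 0.301).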

How the data were processed

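Whole-number read counts per gene, not normalized, were deposited for 9 libraries, with CPM and RPKM computed by the authors in the same tables, per the file headers. The submitters' processing notes list STAR 2.0.4b, Subread and featureCounts 1.4.5 but give them no role. Build, annotation, strand and multi-mapping settings were not given in the sources used here. Deposited CPM differed from CPM recomputed from the counts by at most 5.1e-11 and was not used in tests; deposited RPKM was used for levels between genes. Identifiers were matched to symbols for 97.3% of 41388 genes. Promoter sequences are from RefSeq, GRCm38.p6. For 82.1% of the matched genes the lowest coordinate, on either strand, is the one in GENCODE M21 (the same assembly). Transcription starts were not compared.

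With edgeR 4.0.16 under R 4.3.3, genes were filtered by filterByExpr (minimum count 10; 14741 left), scaled by TMM and tested with the quasi-likelihood F test in 1 fit of 3 genotype means, with Benjamini-Hochberg adjustment over all genes and a threshold of 0.05. SE is the log2 fold change over the root of F, and printed CPM use TMM-scaled library sizes. DESeq2 1.42.0 and limma-voom 3.58.1, other scalings and filters, a replicate block and leaving out each library were alternatives. The fit was also run on simulated data, and the outcome of that run is not given here. Replicates were checked for repeat deposits: over 9 pairs, chi-square divided by its degrees of freedom ran from 19.6 to 64.9, so none was a repeat. The members and lists were chosen with earlier results of these data known. Named genes are all members, the 2 genes with the smallest p of each pathway list per comparison, any called, Mttp, Fabp1 and, for each member, the gene with the highest Pearson r over the 9 libraries at a mean of 1 CPM or more. Marker lists are given as sums. The adipocyte and hepatocyte genes named were chosen after their values were seen. So were the markers called by DESeq2, or by edgeR in any setting but those leaving out 1 library.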

Additional observations from a re-analysis of the deposited data

How the results depend on the processing

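None of the 10 genes was called in MttpLKO against control or DKO against MttpLKO under any alternative, and Dusp5 alone in DKO against control under 4: 1 gene called with no low-count filter, with DESeq2, with the 6 compared libraries alone and without MttpLKO replicate 3, so leaving out 1 library gave 0 to 1. Of 507 fold changes of single genes under alternatives, 482 kept direction and call, 4 gained the call and 21 changed direction, none of them called. Over all genes, the 51, 59 and 49 called in MttpLKO against control, DKO against MttpLKO and DKO against control were 171, 180 and 201 with no low-count filter and 165, 214 and 256 with DESeq2; with the 6 compared libraries alone, DKO against MttpLKO gave 34 and DKO against control 78. Leaving out 1 library gave 14 to 54, 22 to 73 and 15 to 100. In MttpLKO against control it was 25, 14 and 14 without control replicates 1, 2 and 3, 19 without MttpLKO replicate 2 and 29 without DKO replicate 2. In DKO against MttpLKO it was 22 without MttpLKO replicate 2 and 37 without DKO replicate 2. In DKO against control it was 23, 15 and 15 without the control replicates in turn, 100 without MttpLKO replicate 3, and 28 and 20 without DKO replicates 1 and 3. The cause was not tested.

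Same-numbered libraries did not deviate together (correlations of -0.24 to 0.07 over 9 pairs; 0 of 9 libraries were closest to their own number). The replicate block called 35, 43 and 40 genes in the 3 comparisons and none of the 10; with it Dusp4 in MttpLKO against control turned from -0.0031 to 0.00033. Without 1 library, the log2 fold change ran in MttpLKO against control from -0.13 to 0.073 for Dusp4, -0.027 to 0.068 for Spred2, -0.22 to 0.66 for Etv4 and -0.060 to 0.22 for Etv5; in DKO against MttpLKO from -0.47 to 0.067 for Dusp4, -0.34 to 0.081 for Spry1, -0.37 to 0.18 for Spry2, -0.023 to 0.47 for Spry4 and -0.039 to 0.13 for Spred2; and in DKO against control from -0.49 to 0.062 for Dusp4, -0.39 to 0.096 for Spry4, -0.31 to 0.11 for Spred1 and -0.030 to 0.14 for Spred2. Etv4 was not tested at a minimum count of 50.

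Etv4, Dusp5, Spry2, Etv5 and Dusp4 had 14 to 137 counts per library. Counting error at their mean counts was 10.9% to 18.6%, below their spread over the 9 libraries, which was 18.0% to 53.3%. Pools hide the spread between mice.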
